A study of Mus musculus with 14 samples.

Results

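The NF-κB subunits and their feedback inhibitors were followed as a set of 10 genes in CD11b+ cells, the microglia and macrophages of the brain, 3 days after traumatic brain injury (TBI). The set is a list of symbols with a role in the pathway and uses no threshold on expression, but it was drawn up with earlier results of these data known. It holds 4 genes of the subunits (Nfkb1, Nfkb2, Rel and Relb) and 6 genes of inhibitors and regulators (Nfkbia, Nfkbie, Nfkbiz, Bcl3, Tnfaip3 and Tnip1), of 33939 genes in the deposited table. Each symbol matched 1 gene, and all 10 passed the filter on low values in every comparison, so none is left out below. The study asked what a conditional knockout (cKO) in microglia does after TBI. Ctrl mice were Cx3cr1-CreER+/-, and cKO mice were Cx3cr1-CreER+/- and homozygous for a floxed allele. Mice of both genotypes were C57BL/6, were 8 to 12 weeks of age, carried the Cre allele, received tamoxifen and had a controlled cortical impact to 1 hemisphere. The Cre is driven by Cx3cr1, which microglia and other mononuclear phagocytes express, and per the study's methods TBI came after a wait in which circulating monocytes were to be replaced. Which cells of the CD11b+ sort carried the deletion was not tested. Cells were taken with CD11b magnetic beads from the injured, ipsilateral (IL) hemisphere and from the contralateral (CL) hemisphere, giving Ctrl CL and Ctrl IL libraries from 4 mice each and cKO CL and cKO IL libraries from 3 mice each. Of the 8 mice, 6 gave both hemispheres, and the cKO mice 784 and 788 gave IL and CL only. CL is the other hemisphere of an injured brain and not an uninjured control.

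NF-κB is a family of dimeric transcription factors that IκB proteins hold in the cytoplasm of resting cells. Signals from Toll-like, interleukin-1 and TNF receptors activate the IκB kinase, the IκB proteins are degraded, and the freed dimers switch on cytokine, chemokine and survival genes. Among the genes they switch on are those of the IκB proteins themselves, of the ubiquitin-editing enzyme A20 and of several subunits, and the transcripts of these inhibitors are therefore widely read as a record of recent pathway activity in myeloid cells. A second, slower branch runs through the processing of the Nfkb2 product p100 to p52, the partner of RelB.

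The 7 of these genes that could be searched carry matches to the binding motif of their own factors close to a transcription start, and matches are printed here because NF-κB binding at such promoter motifs is the textbook route of this feedback. RefSeq windows of 300 bases (GRCm38.p6, 250 bases before to 50 after a start) were at hand for these 7, not for Nfkbiz, Nfkb1 and Relb, and were searched on both strands with the NF-κB consensus of 10 letters. Overlapping matches were merged into 1. Each run below is 30 bases, written 5′ to 3′ on the strand of the gene, and capitals mark the match. The starts of the matches lay 29 bases before the start of Nfkbia (chr12:55492657-55492686, minus strand), 106 before that of Nfkbie (chr17:45555584-45555613, plus strand), 125 and 12 before that of Tnfaip3 (chr10:19015516-19015545 and chr10:19015403-19015432, minus strand) and 58 before that of Tnip1 (chr11:54962978-54963007, minus strand). A window of another Tnfaip3 start held no match.
Nfkbia: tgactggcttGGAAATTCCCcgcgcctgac
Nfkbie: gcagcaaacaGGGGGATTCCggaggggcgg
Tnfaip3, distal: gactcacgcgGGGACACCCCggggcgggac
Tnfaip3, proximal: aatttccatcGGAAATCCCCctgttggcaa
Tnip1: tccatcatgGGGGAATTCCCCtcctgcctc
Among the subunits, the first of 3 Nfkb2 windows held matches 39 and 11 bases before its start (the other windows also held matches, not printed) (chr19:46304689-46304718 and chr19:46304716-46304745, plus strand), and that of Rel held a match 92 bases before (chr11:23771041-23771070, minus strand). The match of Bcl3 began at base 3 after the start (chr7:19822734-19822763, minus strand).
Nfkb2, distal: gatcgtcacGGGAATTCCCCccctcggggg
Nfkb2, proximal: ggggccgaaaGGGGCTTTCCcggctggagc
Rel: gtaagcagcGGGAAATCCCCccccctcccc
Bcl3: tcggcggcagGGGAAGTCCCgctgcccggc
Of all 32851 windows, 8.46% held a match, and by gene 9.55% of 27025 genes. Nearer to the 7 of 7 genes were the other pathway genes, 11 of 45 (24.4%), and the target genes of NF-κB, 11 of 23 (47.8%), of those with a window. The matches of Tnip1, Nfkb2 (distal) and Rel are 11 or 12 letters long because neighbouring matches overlap, and the Tnip1 match reads the same on both strands. A match describes the sequence and is no evidence of binding in these cells.

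The libraries held 12.2 to 41.6 M reads assigned to genes (median 34.2 M), as read from the smallest steps in the values, and values are reads of a gene per 1000000 reads of its library (CPM). The member value with the fewest reads rested on 245 (Tnip1 in the Ctrl CL library of mouse 3551). Itgam, which encodes CD11b, and Csf1r were present in every library, at 749.9 to 1439 and 4470.0 to 8451 CPM in Ctrl IL. Both libraries of mouse 3546, a Ctrl mouse, stood apart by transcript length. Over 1465 genes with under 2000 exonic bases their median deviation from the group mean was -0.39 (CL) and -0.64 (IL) on the log2 scale, against -0.15 to 0.34 in the other Ctrl libraries and -0.03 to 0.03 in the cKO libraries. Over 3100 genes with more than 6000 bases their medians were 0.11 and 0.13. The myeloid markers Aif1 and Fcer1g were at 71.2 and 147 CPM in the IL library of mouse 3546, against 325 to 366 and 739 to 867 in the other Ctrl IL libraries. The bounds on length were chosen after the values were seen. Nfkbia has the shortest exonic sequence of the 10 genes (1610 bases) and Nfkb1 the longest (12061), and values without a library of that mouse are given below where they differ most.

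Among the 10 genes the level per kilobase of exonic sequence spanned more than 2 orders of magnitude. Nfkbia, which encodes the main IκB (IκBα), was highest in every group, with 1268 ± 229 CPM per kb in Ctrl CL and 1931 ± 264 in cKO IL (SD). Nfkbiz and Tnfaip3 came next, at 155 ± 43.4 and 101 ± 34.2 CPM per kb in Ctrl CL, with ranges that overlapped each other and no other member. The other 7 genes lay between 4.73 (Tnip1) and 15.6 (Nfkbie) CPM per kb on average in Ctrl CL, where neighbours in the order overlapped except Nfkbie, which was above the next gene in all libraries. The bottom of the order was not the same in IL. Bcl3 moved from the ninth place in Ctrl CL to the fourth in Ctrl IL, and from the tenth in cKO CL to the fourth in cKO IL, while Nfkb1 moved from the seventh to the ninth and from the sixth to the tenth.

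Between hemispheres the clearest member was Bcl3, which rose in IL in both genotypes. Nfkb1 was lower in IL than in CL in every mouse with both hemispheres, Nfkb2 rose in cKO, and the abundant inhibitors Nfkbia, Nfkbiz and Tnfaip3 did not pass the test in either genotype. Differences were fitted with limma on log2(CPM + 1) after library scaling over all genes tested, so each fold change is on that scale, and a gene was called at an adjusted p of at most 0.05 (Benjamini-Hochberg) with a fold change of at least 1.2. IL against CL in Ctrl called 1 of the 10 genes (Bcl3, higher) beside 6.56% of 16376 genes tested (3.6% higher), and the median change of the 10 was 0.23 against -0.04 over all genes. In cKO, 3 of the 10 were called (Nfkb2 and Bcl3 higher, Nfkb1 lower) beside 22.4% of 16756 genes, a share near that of the set, with medians of 0.37 and 0.02. By direction, 12.8% of all genes were called higher and 9.52% lower in cKO. Libraries of IL and CL did not overlap for Bcl3 alone in Ctrl (6.26% of all genes were higher without overlap), and for 4 of 10 genes in cKO (Nfkb2 and Bcl3 higher, Nfkb1 and Rel lower), beside 42.4% of all genes. Overlap is read on CPM before scaling, and after scaling Nfkb1 was also apart in Ctrl, while in cKO Rel overlapped and Nfkbie did not. Hemispheres of the same mouse deviated together, and with the mouse as a block the calls were 2 of 10 in Ctrl (Nfkb1 was added) and 4 of 10 in cKO (Relb was added), while 3357 and 2310 of all genes were called.

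Between genotypes none of the 10 genes passed the test in either hemisphere, while 9 of the 10, all but Nfkb1, had a higher fitted level in cKO IL than in Ctrl IL. In IL, 0 of 10 were called by limma beside 0.662% of 16919 genes. An unadjusted p under 0.05 was found for 7, all higher in cKO (Nfkbiz, Nfkbie, Tnfaip3, Tnip1, Nfkb2, Relb and Bcl3), beside 5.11% of all genes higher at that level, and for 5 to 8 with 1 library left out. Of these 7, 6 (all but Nfkbie) did not overlap between the genotypes, on CPM or after scaling, beside 4.84% of all genes. The median difference of the 10 was 0.49, against 0.01 over all genes. In CL, 0 of 10 were called beside 0.873% of 16603 genes, 3 had an unadjusted p under 0.05 (Nfkbiz, Tnfaip3 and Rel, all higher in cKO) beside 4.98% of all genes, and the median was 0.19 against -0.05. Without the cKO CL library of mouse 788 none of the 10 had an unadjusted p under 0.05 in CL. On CPM no member was free of overlap in CL (9.99% of all genes were), and after scaling Rel was. The 10 genes share libraries and tend to move together, so they are not 10 separate observations. The interaction of genotype and hemisphere called 0 of 10 by limma beside 0.0% of 18476 genes, with 2 members (Nfkb2 and Relb) and 481 genes (2.6%) under an unadjusted p of 0.05 (0 to 3 members with 1 library left out), and no difference between the genotypes in the response to injury was shown for any of the 10 genes. In bulk RNA a change in the number of cells of a type and a change in RNA per cell cannot be told apart.

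**Figure D1:**
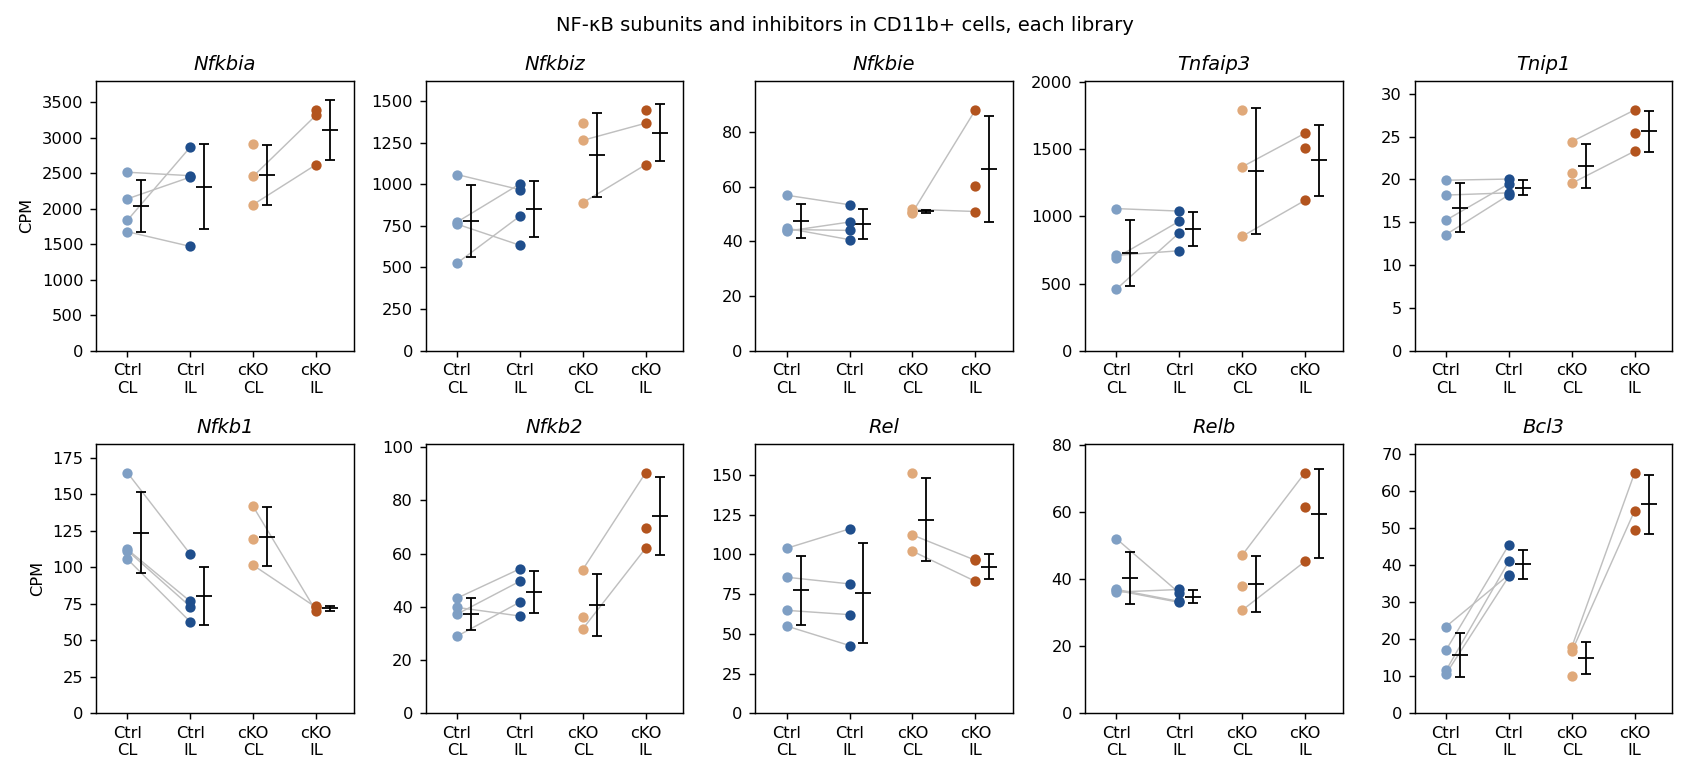
CPM of the 10 genes in each library, by group (Ctrl CL, Ctrl IL, cKO CL, cKO IL), with grey lines joining the hemispheres of a mouse and bars for the mean ± SD, each axis starting at 0. Bcl3 lies at 10.7 to 23.4 and 10.02 to 17.9 CPM in CL and at 36.9 to 45.4 and 49.4 to 64.9 in IL, and every Nfkb1 line is lower at its IL end.

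**Figure D2:**
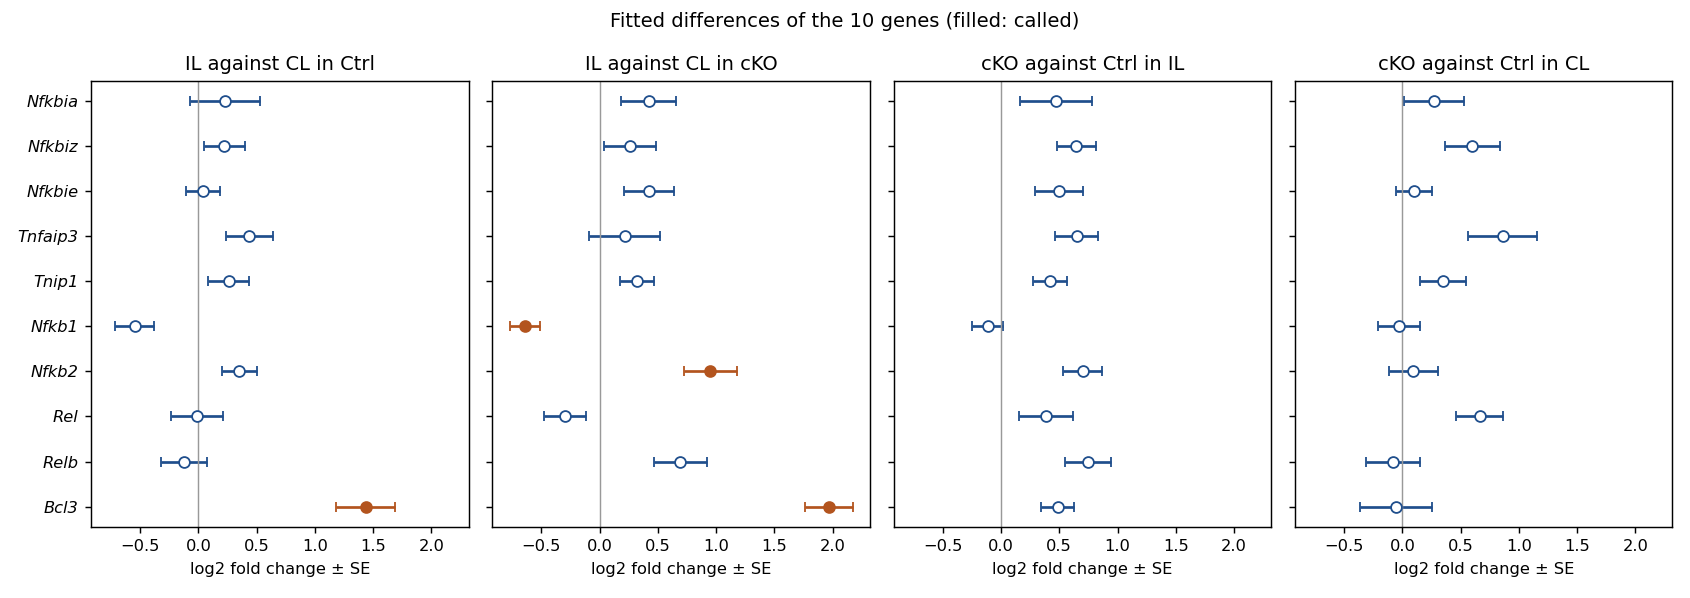
Fitted log2 fold change ± SE of each of the 10 genes in the 4 comparisons, with filled points for genes called. Only Bcl3 (both genotypes), Nfkb1 and Nfkb2 (cKO) are filled between hemispheres, and no point is filled between genotypes.

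The classical IκB genes gave the most abundant of the 10 genes and a much less abundant one. Nfkbia (ENSMUSG00000021025, chr12:55489410-55492647 on the minus strand, 6 merged exons) encodes IκBα, the inhibitor that is degraded and remade fastest. In Ctrl it was at 2514, 1836, 1676 and 2138 CPM in the CL libraries of mice 3541, 3545, 3546 and 3551, and at 2465, 2867, 1469 and 2445 in their IL libraries. In cKO it was at 2912, 2456 and 2058 CPM in CL (mice 788, 791 and 3592) and at 3391, 3317 and 2621 in IL (mice 784, 791 and 3592). Hemispheres overlapped in both genotypes and genotypes in both hemispheres, the cKO IL libraries reached highest, and the lowest value of the Ctrl mice in each hemisphere was that of mouse 3546. IL against CL gave log2 fold changes of 0.23 (SE 0.30, adjusted p = 0.752) in Ctrl and 0.42 (SE 0.23, adjusted p = 0.233) in cKO. With 1 library left out the Ctrl value ran from 0.04 (without IL 3545) to 0.49 (without IL 3546), and without both libraries of mouse 3546 it was 0.37. The difference between cKO and Ctrl was 0.47 (SE 0.31, adjusted p = 0.771) in IL and 0.20 (adjusted p = 0.673) without the Ctrl IL library of mouse 3546, so that 1 library moved it by more than 1.5 times. In CL it was 0.27 (SE 0.26, adjusted p = 0.767), with values from 0.12 (without cKO CL 788; 0.14 without Ctrl CL 3546) to 0.43 when 1 library was left out.

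Nfkbie (ENSMUSG00000023947, chr17:45555703-45563169 on the plus strand, 5 merged exons) encodes IκBε, a slower classical inhibitor. It was at 44.7, 43.7, 56.8 and 44.3 CPM in Ctrl CL and 40.6, 47.0, 53.3 and 44.0 in Ctrl IL, in the mouse order given above. The cKO libraries held 50.5, 50.5 and 51.7 CPM in CL and 60.3, 88.0 and 50.9 in IL. Ctrl CL, Ctrl IL and cKO CL thus lay within 40.6 to 56.8 CPM, and the wider spread of cKO IL came from the library of mouse 791. The log2 fold changes were 0.04 (SE 0.15, adjusted p = 0.936) for IL against CL in Ctrl, 0.42 (SE 0.21, adjusted p = 0.188) in cKO and 0.50 (SE 0.21, adjusted p = 0.53) for cKO against Ctrl in IL. Without the cKO IL library of mouse 791 the last 2 were 0.16 and 0.24.

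The nuclear IκB proteins bind dimers on chromatin instead of holding them in the cytoplasm. Of their 2 genes among the 10, Bcl3 was called between hemispheres in both genotypes and Nfkbiz in neither, a contrast that was not tested directly. Bcl3 (ENSMUSG00000053175, chr7:19808462-19822770 on the minus strand, 11 merged exons) encodes a partner of p50 and p52 homodimers. In Ctrl it was at 23.4, 10.7, 11.6 and 17.0 CPM in CL and 37.4, 36.9, 41.0 and 45.4 in IL. Its cKO values were 10.02, 17.9 and 16.7 CPM in CL and 49.4, 64.9 and 54.7 in IL. No IL library of either genotype overlapped a CL library, and within mice Bcl3 was higher in IL in 4 of 4 Ctrl and 2 of 2 cKO mice. Its level went from 15.7 ± 5.87 CPM to 40.2 ± 3.94 (n = 4, SD) in Ctrl, a log2 change of 1.43 (SE 0.25, adjusted p = 0.00922), and from 14.9 ± 4.25 to 56.3 ± 7.86 (n = 3, SD) in cKO, a log2 change of 1.96 (SE 0.21, adjusted p = 0.00183). In each genotype limma called it under every alternative tried, with adjusted p up to 0.0391 in Ctrl and 0.0127 in cKO. The Ctrl CL library of mouse 3541 was the highest of the CL libraries (23.4 CPM), and that mouse had the smallest change within a mouse (0.73, against 1.53 to 1.99 in the other 5). Bcl3 was also higher in every cKO IL library than in every Ctrl IL library, with a log2 difference of 0.49 (SE 0.14, adjusted p = 0.271) that did not pass the test, whereas in CL the difference was -0.05 (SE 0.31, adjusted p = 0.966). It shares 161 exonic bases with Gm16175 on the other strand, and since Smart Seq v4 libraries do not mark strand, reads there cannot be assigned to either gene.

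Nfkbiz (ENSMUSG00000035356, chr16:55811375-55838899 on the minus strand, 15 merged exons) encodes IκBζ, a nuclear co-activator of secondary response genes such as Il6. It was at 760.4, 526, 773 and 1058 CPM in Ctrl CL and 633, 809, 1002 and 967 in Ctrl IL. The cKO libraries stood at 1371, 1264 and 889 CPM in CL and 1446, 1367 and 1117 in IL. Hemispheres overlapped in both genotypes, and log2 fold changes were 0.22 (SE 0.18, adjusted p = 0.555) in Ctrl and 0.26 (SE 0.22, adjusted p = 0.437) in cKO. With 1 library left out they ran from 0.12 to 0.36 and from 0.06 to 0.43, the lowest without Ctrl CL 3545 and cKO CL 3592. Between genotypes every cKO IL library lay above every Ctrl IL library, and in CL 2 of 3 cKO libraries did so. The log2 differences were 0.65 (SE 0.17, adjusted p = 0.194) in IL and 0.60 (SE 0.24, adjusted p = 0.41) in CL, neither of which passed the test.

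After library scaling the ubiquitin-dependent brakes were higher in IL than in CL in each of the 6 mice with both hemispheres, by amounts that did not pass the test. Tnfaip3 (ENSMUSG00000019850, chr10:19000910-19015657 on the minus strand, 9 merged exons) encodes A20, which removes and adds ubiquitin on signalling proteins upstream of the IκB kinase. It was at 710.4, 459, 693 and 1059 CPM in Ctrl CL and 745, 878, 965 and 1040.2 in Ctrl IL. The cKO values were 1794, 1369.8 and 852 CPM in CL and 1511, 1620.4 and 1120.2 in IL. Before scaling, Tnfaip3 was slightly lower in IL than in CL in mouse 3551. Within mice the scaled change ran from 0.15 to 1.03 in the 4 Ctrl mice and was 0.43 and 0.44 in the 2 cKO mice, and the fits gave 0.44 (SE 0.20, adjusted p = 0.245) and 0.21 (SE 0.30, adjusted p = 0.653). The cKO value ran from -0.09 without cKO CL 3592 to 0.48 without cKO CL 788. The unpaired cKO CL library of mouse 788, at 1794 CPM, was the highest of all 14 libraries. Tnfaip3 had the largest difference of the 10 genes between cKO and Ctrl in CL, 0.86 (SE 0.30, adjusted p = 0.324), with overlapping groups, and without the cKO CL library of mouse 788 it was 0.59 (adjusted p = 0.86). In IL, where no libraries overlapped, it was 0.65 (SE 0.18, adjusted p = 0.253).

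Tnip1 (ENSMUSG00000020400, chr11:54910785-54962917 on the minus strand, 20 merged exons) encodes ABIN-1, a ubiquitin-binding partner of A20, and was the member with the lowest level per kilobase in Ctrl. It was at 18.2, 13.6, 19.9 and 15.2 CPM in Ctrl CL and 18.4, 18.2, 20.05 and 19.5 in Ctrl IL. Among cKO libraries it was at 20.8, 24.4 and 19.6 CPM in CL and 25.4, 28.1 and 23.3 in IL. The Ctrl IL libraries were close together (SD 0.874 CPM) and all below the cKO IL libraries. The log2 fold changes were 0.26 (SE 0.18, adjusted p = 0.461) and 0.32 (SE 0.15, adjusted p = 0.152) between hemispheres in Ctrl and cKO, and 0.42 (SE 0.15, adjusted p = 0.381) between genotypes in IL.

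Of the subunits made as precursors, Nfkb1 fell and Nfkb2 rose in IL in cKO. Nfkb1 (ENSMUSG00000028163, chr3:135584655-135691547 on the minus strand, 26 merged exons) encodes p105, the source of p50, the partner of RelA in the most common dimer. It was at 106, 112, 165 and 112 CPM in Ctrl CL and 62.8, 73.2, 109 and 76.8 in Ctrl IL. In cKO it was at 119, 102 and 142 CPM in CL and 73.4, 72.6 and 70.1 in IL, the narrowest of its groups (SD 1.71 CPM). It was lower in IL in 4 of 4 Ctrl mice and in 2 of 2 cKO mice, and only the IL library of mouse 3546 kept the Ctrl groups from being apart in CPM. In cKO it fell from 121 ± 20.2 to 72.1 ± 1.71 CPM (n = 3, SD), a log2 change of -0.64 (SE 0.13, adjusted p = 0.0123) in limma, and it was called under every alternative, with adjusted p up to 0.0481. In Ctrl the log2 fold change was -0.55 (SE 0.17, adjusted p = 0.0836), which did not pass the test. With the mouse as a block it was -0.55 (adjusted p = 0.00362) and was called, as it was without the IL library of mouse 3546 (-0.64, adjusted p = 0.0439). Without both libraries of that mouse it was -0.53 (adjusted p = 0.0695), not called. Genotypes overlapped in both hemispheres, with log2 differences of -0.11 (SE 0.13, adjusted p = 0.926) in IL and -0.03 (SE 0.18, adjusted p = 0.97) in CL.

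Nfkb2 (ENSMUSG00000025225, chr19:46304320-46312385 on the plus strand, 20 merged exons) encodes p100, which acts as an inhibitor of RelB until it is processed to p52. It was at 39.8, 29.0, 43.3 and 37.3 CPM in Ctrl CL and 36.5, 41.8, 54.2 and 49.6 in Ctrl IL. Values in cKO were 36.3, 54.0 and 31.7 CPM in CL and 69.8, 90.3 and 62.0 in IL, so that all 3 cKO IL libraries lay above the other 11. In cKO it rose from 40.7 ± 11.8 to 74.0 ± 14.6 CPM (n = 3, SD), a log2 change of 0.95 (SE 0.23, adjusted p = 0.0208) in limma. This call was lost without the cKO CL library of mouse 788 (adjusted p = 0.0571), the cKO IL library of mouse 784 (0.0611) or that of mouse 791 (0.0719). In Ctrl the log2 fold change was 0.35 (SE 0.15, adjusted p = 0.207), with 3 of 4 mice higher in IL. A joint fit of the 4 groups that takes mice as random effects gave 0.37 (adjusted p = 0.0484), which was called, whereas with the mouse as a block it was 0.35 (adjusted p = 0.0766), not called. cKO against Ctrl gave 0.70 (SE 0.17, adjusted p = 0.16) in IL and 0.09 (SE 0.21, adjusted p = 0.902) in CL, and the interaction was 0.61 (SE 0.27, adjusted p = 1.0), so the larger change in cKO was not shown to differ from that in Ctrl. Nfkb2 shares 531 exonic bases with AC114539.1 (10.47 to 18.03 CPM) and 299 with Psd (0.558 to 3.93 CPM), both on the other strand, and reads of the shared bases cannot be assigned.

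Rel (ENSMUSG00000020275, chr11:23736847-23770970 on the minus strand, 10 merged exons) encodes c-Rel, a subunit with a transactivation domain that drives Il12b and Il23a. It was at 54.9, 64.8, 104 and 85.6 CPM in Ctrl CL and 42.7, 62.1, 116 and 81.4 in Ctrl IL, with the mice in the same order in both hemispheres. In the cKO libraries it stood at 151, 112 and 102 CPM in CL and 97.3, 96.3 and 83.0 in IL, without overlap in CPM and with overlap after scaling. The log2 fold changes of IL against CL were -0.01 (SE 0.23, adjusted p = 0.99) in Ctrl, where the direction changed with the scaling, and -0.30 (SE 0.18, adjusted p = 0.269) in cKO (-0.11 without cKO CL 788). For cKO against Ctrl the log2 difference was 0.66 (SE 0.20, adjusted p = 0.242) in CL and 0.39 (SE 0.23, adjusted p = 0.736) in IL. The IL value ran from 0.19 (adjusted p = 0.915) without Ctrl IL 3541 to 0.55 (adjusted p = 0.162) without Ctrl IL 3546.

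Relb (ENSMUSG00000002983, chr7:19606217-19629438 on the minus strand, 15 merged exons) encodes RelB, the partner of p52. It was at 52.1, 36.7, 36.2 and 37.0 CPM in Ctrl CL and 36.0, 33.1, 37.0 and 33.4 in Ctrl IL. The cKO values reached 37.9, 47.2 and 30.8 CPM in CL and 61.6, 71.9 and 45.4 in IL. The Ctrl IL libraries were nearly level and all below the cKO IL libraries, whereas in CL the genotypes overlapped. IL against CL gave -0.12 (SE 0.20, adjusted p = 0.808) in Ctrl and 0.69 (SE 0.23, adjusted p = 0.0606) in cKO. With the mouse as a block the cKO value was 0.67 (adjusted p = 0.0207), which was called. That fit rests on the 2 cKO mice with both hemispheres, with changes of 0.79 (mouse 791) and 0.58 (mouse 3592). Without the cKO IL library of mouse 3592 the cKO value was also called (0.93, adjusted p = 0.0239). cKO against Ctrl in IL gave 0.75 (SE 0.20, adjusted p = 0.204), the largest difference of the 10 genes in that hemisphere. Relb lost this rank to Nfkb2 without the Ctrl IL library of mouse 3546 or 3551 or the cKO IL library of mouse 784. Relb lost it to Nfkbiz without the cKO IL library of mouse 791. The interaction was 0.82 (SE 0.31, adjusted p = 1.0), the largest among the 10 genes and not past the test.

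Ratios of members within a library do not depend on how libraries are scaled and are given as a description, since they were chosen after the values were seen. Nfkb2 to Nfkb1, as a ratio of CPM, was 0.26 to 0.376 in Ctrl CL and 0.497 to 0.646 in Ctrl IL, without overlap. It was 0.224 to 0.532 in cKO CL and 0.884 to 1.24 in cKO IL, above every other library. Nfkbia to Nfkb1 was 10.2 to 23.8 in Ctrl CL, 13.5 to 39.3 in Ctrl IL, 14.5 to 24.4 in cKO CL and 37.4 to 46.2 in cKO IL. The lowest Ctrl values of the latter were those of mouse 3546 in both hemispheres, and the cKO groups did not overlap. Exonic lengths differ between the genes of a ratio, so its size is not a ratio of molecules.

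**Figure D3:**
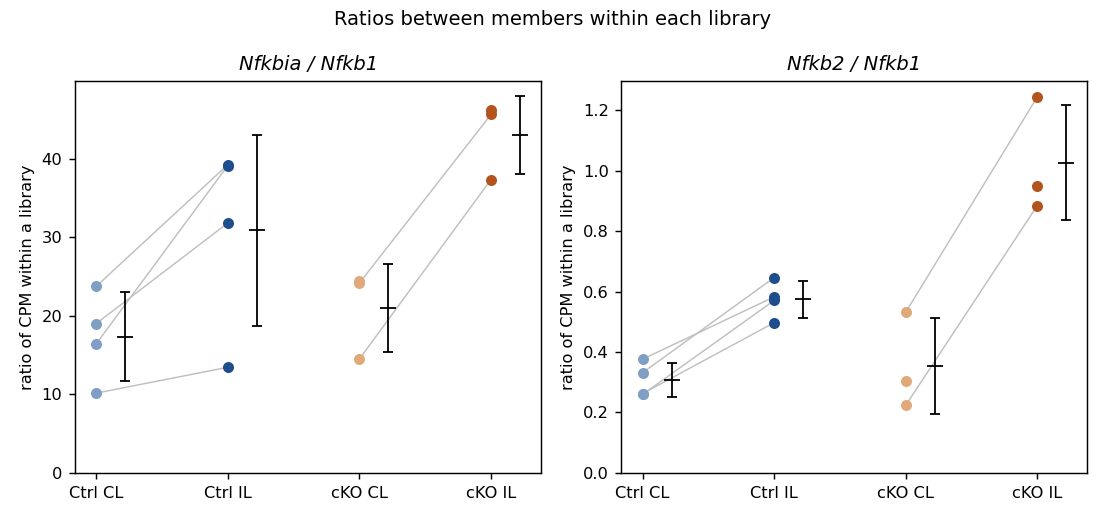
Ratio of Nfkbia to Nfkb1 and of Nfkb2 to Nfkb1 (CPM over CPM) in each library, by group, with grey lines joining the hemispheres of a mouse and bars for the mean ± SD. Both ratios are higher in IL than in CL in all 6 mice, and the cKO IL libraries hold the highest Nfkb2 to Nfkb1 ratios, 0.884 to 1.24.

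Across libraries, each gene was also set against its own mean over the 14 libraries as a z score of its scaled log2 value. In the cKO IL libraries of mice 784, 791 and 3592, 9, 9 and 7 of the 10 genes were above their mean, and in the cKO CL libraries of mice 788, 791 and 3592 the counts were 6, 7 and 2. The Ctrl IL libraries had 3, 5, 4 and 4 and the Ctrl CL libraries 3, 1, 2 and 1, in the mouse order given above. Nfkb1 was below its mean in all 3 cKO IL libraries. Of 9753 genes with a mean log2 value of at least 3, those closest to the mean z profile of the 10 genes were Zc3hav1, Rasgef1b, Pml, Haus2 and Plk3, with root mean square differences of 0.366, 0.367, 0.395, 0.416 and 0.417 z units over 14 libraries. Rasgef1b, for example, was at 185 ± 12.2 CPM in Ctrl IL (n = 4, SD) and 327 ± 72.4 in cKO IL (n = 3, SD). Closest to Nfkbia alone were Cdkn1a (0.239), Noc2l (0.315), Cox6a2 (0.322), Bcl2a1b (0.393) and Mif (0.406), of which Bcl2a1b has near-identical paralogs and is uncertain.

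**Figure D4:**
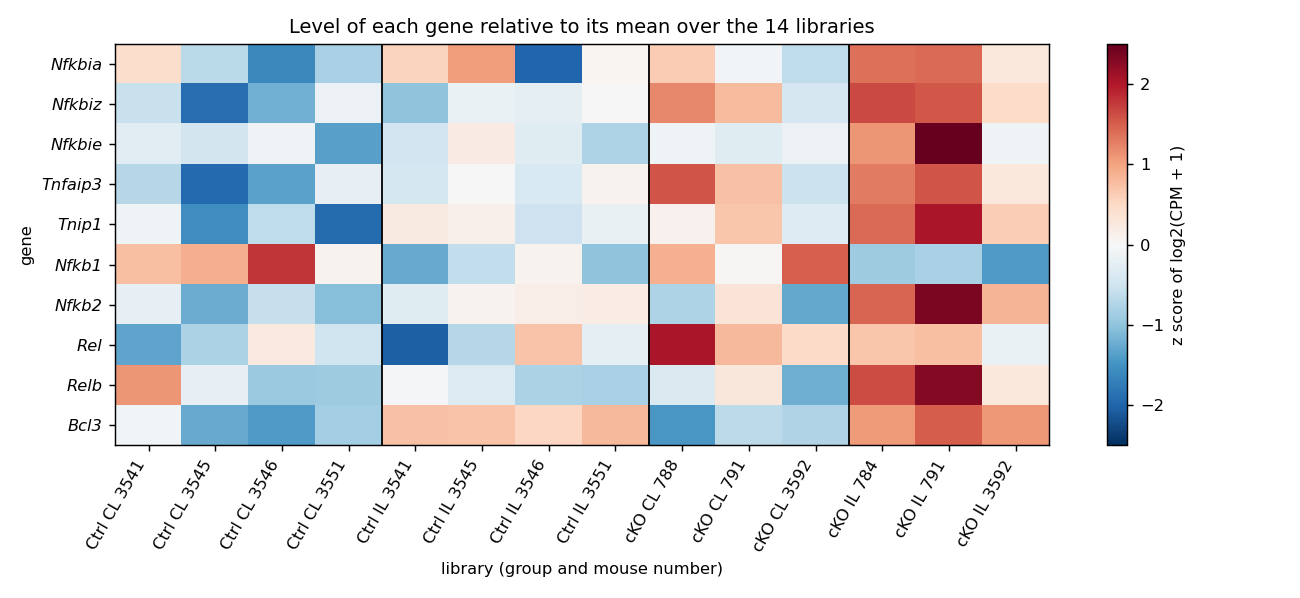
Heat map of the z score of log2(CPM + 1) after scaling, for the 10 genes (rows) in the 14 libraries (columns, by group and mouse number), red above and blue below the mean of a gene over the libraries. The cKO IL columns are mostly red with Nfkb1 blue, and 9, 9 and 7 of 10 genes are above their mean there.

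Outside the 10 genes, the median of the other pathway genes lay close to that of all genes between genotypes, while in IL more of them than of all genes were higher in cKO at an unadjusted p under 0.05. The other pathway genes (56 genes of receptors, adaptors, kinases, ubiquitin enzymes and the remaining subunit and inhibitors, all tested) had median log2 differences between cKO and Ctrl of 0.04 in IL and 0.01 in CL, with 0 of 56 called by limma in either hemisphere and 8 and 3 under an unadjusted p of 0.05, a level that 8.91% and 9.81% of all genes reached in IL and CL. Of the 8 in IL, 7 were higher in cKO (Cd40, Nfkbid, Tlr2, Tnip2, Tnip3, Traf1 and Zc3h12a), beside 5.11% of all genes, and 1 (Tlr4) was lower. Rela, which encodes the main transactivating subunit and was named after its values were seen, was at 184 ± 25.8 CPM in Ctrl CL and 152 ± 19.3 in Ctrl IL (n = 4, SD), and at 179 ± 10.9 and 170.0 ± 15.9 in cKO CL and cKO IL (n = 3, SD). Its log2 fold changes were -0.20 and 0.01 between hemispheres in Ctrl and cKO and 0.18 between genotypes in IL, none called.

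Between hemispheres in Ctrl, 3 of the 56 pathway genes rose and 1 fell in IL, a share near the 6.56% of all genes called. Traf1, a signalling adaptor of TNF receptors, rose from 4.51 ± 1.40 to 14.6 ± 2.76 CPM (n = 4, SD), a log2 change of 1.58 (adjusted p = 0.00194). Ikbke, the kinase IKKε, rose from 2.45 ± 1.31 to 15.8 ± 1.90 (2.42, adjusted p = 0.00142), and Zc3h12a, the RNase regnase-1, from 21.0 ± 2.502 to 36.0 ± 5.59 (0.81, adjusted p = 0.0297). The adaptor Traf5 fell from 45.7 ± 3.28 to 28.6 ± 2.05 CPM (-0.59, adjusted p = 0.0449). In cKO 10 rose and 5 fell, beside 22.4% of all genes called, with Ikbke (2.24), Traf1 (1.63), Tlr2 (1.28) and Cd40 (1.09) the largest rises and Traf5 (-0.51) and Tlr4 (-0.50) the largest falls on the log2 scale. The 4 receptor and adaptor genes Tlr2, Cd40, Tlr4 and Traf5 are given in cKO after their values were seen. With the mouse as a block the calls were 11 of 56 in Ctrl and 6 of 56 in cKO, beside 20.5% and 13.8% of all genes, and the cKO block rests on 2 mice.

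A list of 30 target genes of NF-κB, none of them among the 10, gives the output side of the pathway. In IL against CL in Ctrl 5 of 30 rose, beside 3.6% of all genes, and none fell. They were Ptgs2 (cyclooxygenase-2, log2 fold change 2.59), Cxcl2 (1.65), Nos2 (1.40), Csf1 (1.17) and Gadd45b (1.02), with adjusted p from 0.00175 to 0.0252 in limma. In cKO 10 of 29 tested rose, beside 12.8% of all genes, and none fell. The median over the list was 0.33 in Ctrl and 0.90 in cKO, and in the interaction 0 of 30 targets were called by limma and 1 had an unadjusted p under 0.05. Il1b and Tnf, cytokine genes named after their values were seen, did not pass the test in Ctrl and between genotypes, respectively. Il1b stood at 399 ± 112 CPM in Ctrl CL and 873 ± 291 in Ctrl IL (n = 4, SD), a log2 change of 1.18 (adjusted p = 0.0762), and rose in cKO by 1.13 (adjusted p = 0.00664). Between genotypes no target was called by limma in either hemisphere (11 of 30 and 4 of 29 under an unadjusted p of 0.05, beside 8.91% and 9.81% of all genes), while the median of the list was 0.54 in IL and 0.24 in CL. Tnf, which was at 736 ± 147 CPM in Ctrl IL (n = 4, SD) and 1783 ± 411 in cKO IL (n = 3, SD), had a log2 difference of 1.28 (adjusted p = 0.0715).

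**Figure D5:**
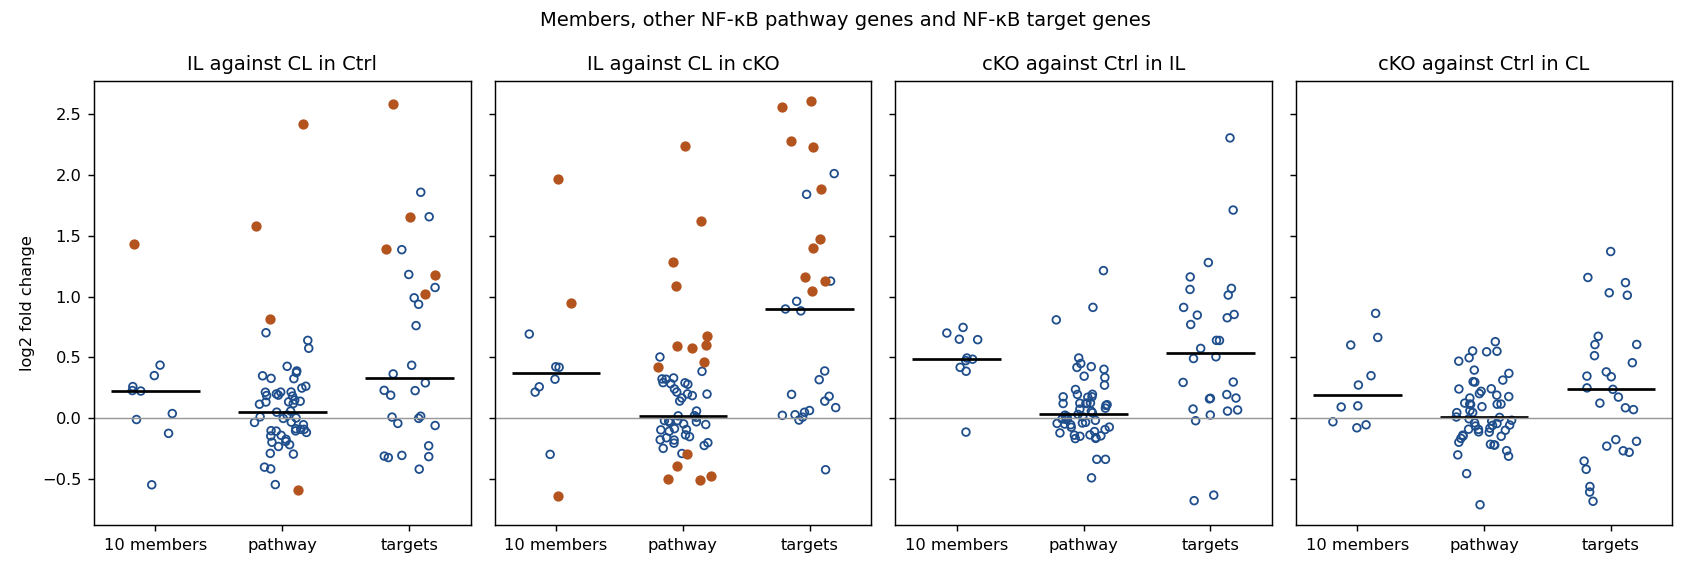
Log2 fold change of each gene in the set of 10, among 56 other pathway genes and among 30 target genes, in the 4 comparisons, with filled points for genes called, a bar for the median and a random sideways spread of the points. In cKO against Ctrl in IL the medians are 0.49 for the 10 genes, 0.04 for the pathway genes and 0.54 for the targets, and no point is filled.

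Other gene lists moved with the hemispheres, and their part in the member values was not tested. Genes of the response to tissue dissociation (19 genes such as Fos and Jun, which can be induced during cell isolation) summed to 37095 to 47968 CPM in Ctrl CL and 26337 to 30586 in Ctrl IL, and to 41789 to 58045 in cKO CL and 28009.6 to 32789 in cKO IL, without overlap between hemispheres and with overlap between genotypes. In IL, 2 of the 19 were called lower and 1 higher in Ctrl, and 10 lower and 1 higher in cKO. Markers of homeostatic microglia were called lower in IL for 8 of 10 genes in each genotype, with sums of 35098 to 44355 and 19113 to 20572 CPM in Ctrl CL and Ctrl IL and 32018 to 36421 and 17539 to 19682 in cKO. The 8 infiltrating monocyte markers, of which 3 were called higher in IL in each genotype, summed to 236 to 795 CPM in Ctrl CL and 384 to 612 in Ctrl IL, and to 139 to 353 in cKO CL and 315 to 489 in cKO IL, with overlap between hemispheres in both genotypes. The 6 B cell markers, of which Ighm was called lower in IL in each genotype, summed to 550.2 to 833 and 322 to 349.8 CPM in Ctrl CL and Ctrl IL and to 657 to 756 and 320.5 to 489 in cKO, without overlap between hemispheres. The 10 neutrophil markers, of which 5 were called lower in IL in cKO and none in Ctrl, summed to 1336 to 6912 CPM in Ctrl CL, 873 to 1335 in Ctrl IL, 1220.2 to 2107 in cKO CL and 863 to 1083 in cKO IL. The same 6 neutrophil markers were lower in IL at an unadjusted p under 0.05 in each genotype. The list median was -2.37 in Ctrl and -1.14 in cKO, and 6.56% and 22.4% of all genes were called there. Among the 6 astrocyte markers Gfap was called higher and Slc1a3 lower in IL in each genotype, and the sums were 208 to 225 and 122 to 171 CPM in Ctrl CL and Ctrl IL, without overlap, and 178 to 214 and 131 to 188 in cKO, with overlap. The 9 T and NK cell markers summed to 9.52 to 19.9 CPM in Ctrl CL and 5.09 to 6.34 in Ctrl IL, without overlap and with Nkg7, Gzma and Klrb1c called lower, and overlapped in cKO (5.62 to 11.5 and 4.70 to 14.1), where none was called (limma, none under an unadjusted p of 0.05 either). The 8 dendritic cell markers included Ccr7, called higher in IL in each genotype, and Itgae and Fscn1, called lower in cKO IL. Their sums overlapped between hemispheres in Ctrl and not in cKO, where they were 493 to 759 CPM in CL and 357 to 390.3 in IL. In cKO IL the oligodendrocyte markers Mobp and Mbp, the endothelial marker Kdr and the myeloid markers Cd68 and Fcer1g were called higher. The sums of the 6 oligodendrocyte and of the 6 endothelial markers overlapped between hemispheres in both genotypes, while the 6 myeloid markers, Itgam and Csf1r among them, did so in Ctrl and not in cKO (12839 to 13676 CPM in CL and 10304 to 10946 in IL). Most of the myeloid sum was Csf1r, with means of 9857 CPM in cKO CL and 6511 in cKO IL. Ptprc was also lower on average in cKO IL, whereas Itgam, Aif1, Cd68 and Fcer1g were higher, and the list median was 0.21.

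Between genotypes Olfml3 in IL and Mobp in CL were the markers called by limma, and others lay under an unadjusted p of 0.05. In CL, 7 of the 19 dissociation genes had an unadjusted p under 0.05, beside 9.81% of all genes, with Egr1, Ier2, Klf6 and Nr4a1 higher and Hsp90aa1, Hspa1a and Hspa1b lower in cKO. The median of the list was 0.27 there, against -0.05 over all genes and 0.19 for the 10 NF-κB genes. In IL, 5 of the 19 reached that level (Egr1, Ier2 and Nr4a1 higher, Hspa1a and Hspa1b lower), with a median of 0.09, and limma called none of the 19 in either hemisphere. The oligodendrocyte sums in CL did not overlap, at 220.0 to 310.4 CPM in Ctrl and 176 to 215 in cKO, with a median log2 difference of -0.75 and 4 of 6 markers lower at an unadjusted p under 0.05. Mobp, a myelin gene, was called lower in cKO CL (3.49 ± 1.24 CPM, n = 3, against 13.6 ± 4.39 in Ctrl CL, n = 4, SD), with a log2 difference of -1.70 (adjusted p = 0.0464, limma). In CL the medians were -1.31 for neutrophil, -0.76 for monocyte and -0.57 for T and NK cell markers, with 3 of 10, 2 of 8 and 3 of 5 tested lower in cKO at an unadjusted p under 0.05, none called by limma and overlapping sums. Olfml3, a marker of homeostatic microglia, was called lower in cKO IL (989 ± 136 CPM, n = 3, against 2189 ± 147 in Ctrl IL, n = 4, SD), by a log2 difference of -1.14 (adjusted p = 0.0363, limma), and in CL the difference was -1.11 (adjusted p = 0.112). None of the other homeostatic markers was under an unadjusted p of 0.05 in IL. The median of the 10 was 0.04 there, and their sums overlapped between genotypes. In IL the monocyte and neutrophil sums overlapped between genotypes. The dendritic cell sums did not, with 239.8 to 311 CPM in Ctrl IL and 357 to 390.3 in cKO IL. Most of that sum was Fscn1, at 199.9 to 227 and 282 to 323 CPM, while Ccr7 overlapped (13.7 to 28.6 and 22.5 to 33.4) and Clec9a and Xcr1 reached at most 0.736 and 2.90 CPM in IL. Flt3, Zbtb46 and Cd209a also overlapped, with means of 4.69, 4.78 and 13.6 CPM in Ctrl IL and 6.02, 6.23 and 21.9 in cKO IL. Itgae overlapped too and was lower on average in cKO IL (3.21 CPM, against 3.63 in Ctrl IL). No marker of these lists was at 0 in all libraries of a group. The part of these lists in the member values of cKO CL and cKO IL was not tested.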

How the data were processed

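RNA-seq (Smart Seq v4 libraries, paired-end reads on a NovaSeq 6000) was analysed for all 14 libraries, in 4 groups taken from the labels. Per the submitters' processing notes and the methods of the study, the authors aligned reads with STAR to mm10 and quantified genes in Partek Flow 8.0. The quantification settings and annotation are not given in the sources used here. The deposited table is named as raw counts but holds CPM, since each library sums to 1000000, so the authors had divided each value by the library total. Taking the commonest low value as 1 read, 75.3% to 81.1% of values under 100 reads came out whole (tolerance 0.03), too few for a test on counts. The authors' own comparison tables (p-value, step-up FDR, ratio, fold change and group means) were not used.

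CPM were rescaled by a trimmed mean of log ratios (30% and 5% trimmed, factors 0.879 to 1.15), a pseudocount of 1 was added and log2 values were fitted with limma 3.58.1 in R 4.3.3 (empirical Bayes with a trend, Benjamini-Hochberg adjustment over all genes tested), on the libraries of the 2 groups compared, or on all 14 for the interaction. A gene was tested if it reached the CPM of 10 reads at the median depth (0.288 to 0.353) in as many libraries as the smaller group and 15 reads in total. Summaries used Python 3.11.15, numpy 2.4.6, pandas 2.3.3 and scipy 1.17.1, and plots matplotlib 3.10.9. The fit was tested on simulated data with independent libraries and a single dispersion. That simulation held no pairing by mouse and no differences by transcript length, so it did not test the fit under these. Positions and exonic lengths are from GENCODE vM21 (GRCm38, the assembly of mm10).

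The numbers in the labels name the mouse, so IL and CL of a mouse are paired. Deviations from the group means of the 6 pairs correlated at 0.182 to 0.608 (19 other pairs, -0.536 to 0.503), and a fit with the mouse as a block is given where it changes a call. In cKO the block rests on mice 791 and 3592, since mice 784 and 788 add nothing to a difference within mice. Animals are the replicates, pooling of animals is not stated, and mice 784 and 788 were taken as different animals. Alternatives were pseudocounts of 0.5 and 0.1, no scaling, median-ratio scaling, no filter beyond 1 read, a single fit of all 14 libraries, the mouse as a random effect or block, adjusted p alone, each library left out in turn and, chosen after seeing the data, both libraries of mouse 3546 left out of IL against CL in Ctrl.

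The members and gene lists were chosen with earlier results of these data known. Named genes were the 10 members, up to 6 genes per list called in IL against CL in Ctrl or between genotypes, the markers, and the 5 genes with the smallest root mean square z difference from the mean profile of the 10 members or from Nfkbia. Genes outside this rule are said to be so. The targeted gene is not reported here.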

Additional observations from a re-analysis of the deposited data

Results flagged for a closer look

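In the Ctrl CL group 3 single values stood apart from the other 3 libraries by Dixon's test at the 95% level, of 20 tests of a gene in a group of 4, where chance gives about 1 in 20. Nfkbie was at 56.8 CPM in the library of mouse 3546 and at 43.7 to 44.7 in the others (gap over range 0.92). Nfkb1 was at 165 CPM in the same library and at 105.7 to 112 in the others (0.888). Relb was at 52.1 CPM in the library of mouse 3541 and at 36.2 to 37.0 in the others (0.95). These ratios are on CPM as deposited. On scaled log2 values they were 0.136, 0.516 and 0.647, all under the critical value, and 0 of the 20 member and group combinations tested passed it. Mouse 3546 is also the mouse whose libraries stood apart by transcript length, and its part in the Nfkbie and Nfkb1 values was not tested.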

How the results depend on the processing

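Bcl3 in both genotypes and Nfkb1 in cKO were called in IL against CL under every alternative, and no member was called between genotypes or in the interaction under any. Of 420 member values under alternatives other than leaving out 1 library, 408 kept direction and side of the threshold, 6 passed the threshold and 6 reversed, and of 420 with 1 library left out the numbers were 388, 2 and 27, with 3 calls lost.

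The members called in IL against CL in Ctrl (1) were 2 in a single fit over all 14, 3 when the mouse was a random effect (Nfkb1 and Nfkb2 added, adjusted p = 0.00309 and 0.0484 in limma) and 2 with the mouse as a replicate block (Nfkb1 added), and 1 to 2 with a library left out. Over all genes 1074 of 16376 were called in the main fit and 2010 of 18476 in the single fit. The random effect called 4256 of 18476 genes and the block 3357 of 16376 (20.5%). In cKO the members called (3) were 4 with the block or the random effect (Relb added) and 2 to 4 with a library left out. Over all genes the numbers there were 3746 of 16756 in the main fit, 3093 of 18476 with the random effect and 2310 of 16756 (13.8%) with the block, which rests on 2 mice. Other pathway genes called in Ctrl (4) were 7 on the deposited CPM, 2 without the filter, 14 with the mouse as random effect, 11 with the block, 2 without both libraries of mouse 3546 and 2 to 4 with a library left out. In cKO (15) they were 5 in the single fit, 6 with the block and 6 to 12 with a library left out, and in cKO against Ctrl in IL (0) they were 1 with the mouse as random effect and 0 to 2 with a library left out (2 without the Ctrl IL library of mouse 3546). The block, which was fitted between hemispheres only, changed no other call of a member.

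Directions near 0 reversed. In IL against CL in Ctrl, Nfkbie was -0.033 on the deposited CPM, and Rel was 0.0295 with median-ratio scaling and 0.011 in the single fit and with the random effect. In cKO against Ctrl in CL, Nfkb1 was 0.0082 with median-ratio scaling, and Nfkbiz was -0.028 in the interaction under the same scaling. With a library left out, log2 values in Ctrl IL against CL ran from -0.044 to 0.11 for Nfkbie, -0.18 to 0.14 for Rel and -0.225 to 0.046 for Relb, and in cKO from -0.087 to 0.485 for Tnfaip3. In cKO against Ctrl in CL they ran from -0.12 to 0.10 for Nfkb1, -0.11 to 0.27 for Nfkb2, -0.22 to 0.0981 for Relb and -0.21 to 0.202 for Bcl3. In the interaction they ran from -0.088 to 0.36 for Nfkbia, -0.15 to 0.196 for Nfkbiz, -0.51 to 0.045 for Tnfaip3, -0.031 to 0.17 for Tnip1 and -0.22 to 0.027 for Nfkb1. The cause was not tested.

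Counts over all genes moved more. In Ctrl 1074 genes were called between hemispheres, against 552 without the filter, 2010 in the single fit, 4256 with the random effect, 3357 with the block and 487 to 1413 with a library left out. In cKO 3746 were called, against 1391 in the single fit, 2310 with the block and 1882 to 3538 with a library left out. Between genotypes 112 were called in IL, against 66 without the filter, 190 with the random effect and 46 to 284 with a library left out, and in CL 145, against 88, 290 and 72 to 165 (265 in the single fit). The interaction called 0, against 3 with the random effect and 0 to 1 with a library left out. On the deposited CPM 1647 genes were higher and 2146 lower in IL in cKO, against 2150 and 1596 with scaling, and in Ctrl 625 and 814, against 590 and 484. With 3 and 4 mice a group, differences between genotypes of the size seen in members were not past the test, and their absence is not shown.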
